A study of Mus musculus with 6 samples.

Results

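Chromatin accessibility was described at 10 genes of glycolysis in muscle fibre nuclei after knockdown of Yap. The genes were Gapdh, Pkm, the muscle isoforms Pfkm, Aldoa, Eno3 and Pgam2, and the widely expressed isoforms Eno1 and Pgam1. With them were Ldha, the lactate dehydrogenase subunit of fast muscle, and Ldhb, the lactate dehydrogenase isoform of oxidative tissues. All 10 genes were taken by gene symbol from a table of transcription start site (TSS) windows. Each window was taken to reach 1 kb up- and downstream of all the transcript starts that the annotation gives for a gene. The 10 symbols matched 11 of 49366 windows, because 2 gene models carry the symbol Aldoa. The second of these (ENSMUSG00000114515) starts upstream of the main Aldoa gene on the same strand and is called the upstream Aldoa model here.

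Male C57BL/6J mice were injected at 8 weeks of age, and their gastrocnemius and tibialis anterior (TA) muscles were collected 28 days later. The control muscles received AAV6:LacZ-shRNA, an adeno-associated virus that expresses a short hairpin RNA (shRNA) against a bacterial gene, and the contralateral muscles received AAV6:Yap-shRNA, with 3 libraries per group. Each library pooled 4 gastrocnemius and 4 TA muscles, and nuclei positive for PCM1, a protein at the surface of muscle fibre nuclei, were sorted before the assay for transposase-accessible chromatin (ATAC-seq). A pooled library does not show the spread between single animals, and since a hairpin acts on RNA, accessibility at Yap1 itself does not report how far the knockdown went.

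Glycolysis splits glucose into pyruvate, and in fast muscle fibres it supplies much of the ATP for short, intense contraction. Phosphofructokinase commits sugar to the pathway, aldolase cleaves it into triose phosphates, and glyceraldehyde-3-phosphate dehydrogenase, phosphoglycerate mutase, enolase and pyruvate kinase carry these to pyruvate. Lactate dehydrogenase then converts pyruvate to lactate and back. Muscle carries its own isoforms of several of these enzymes, which replace the forms used by most other cells as fibres mature.

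The promoters of these isoforms differ in their bases, and 4 are shown because they hold few or many CpG dinucleotides: Pgam2 and Eno3 few, and Pgam1 and Ldha many. Each run is the 250 bases before the start in RefSeq on build GRCm38, 5′ to 3′ on the strand of the gene, with matches to a searched motif in capitals on either strand. In Pgam2 (chr11:5803797-5804046, minus strand) the capitals mark the E-box CAGCTG, a site of the kind bound by myogenic factors, and a match to the MEF2 motif. In Eno3 (chr11:70656926-70657175, plus strand) no searched motif was matched in this stretch. In Pgam1 (chr19:41911621-41911870, plus strand) the capitals mark ACGTG, the core of hypoxia response elements. In Ldha (chr7:46845554-46845803, plus strand) they mark ACGTG, which overlaps itself on opposite strands where CACGTG is in capitals, and the GC box GGGCGG or its complement.
Pgam2: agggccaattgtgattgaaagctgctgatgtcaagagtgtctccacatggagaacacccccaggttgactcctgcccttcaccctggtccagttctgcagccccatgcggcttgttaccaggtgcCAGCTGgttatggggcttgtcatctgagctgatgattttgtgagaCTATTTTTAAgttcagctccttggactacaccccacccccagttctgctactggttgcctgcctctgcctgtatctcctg
Eno3: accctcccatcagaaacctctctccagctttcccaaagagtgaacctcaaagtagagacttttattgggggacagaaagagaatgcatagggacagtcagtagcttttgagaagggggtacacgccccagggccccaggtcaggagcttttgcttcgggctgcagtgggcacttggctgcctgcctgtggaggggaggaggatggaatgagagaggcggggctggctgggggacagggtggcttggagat
Pgam1: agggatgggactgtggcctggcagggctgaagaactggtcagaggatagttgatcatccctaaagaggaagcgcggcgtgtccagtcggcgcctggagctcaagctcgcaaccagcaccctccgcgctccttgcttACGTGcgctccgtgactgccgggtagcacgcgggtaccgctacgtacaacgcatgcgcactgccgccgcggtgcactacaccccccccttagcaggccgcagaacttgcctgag
Ldha: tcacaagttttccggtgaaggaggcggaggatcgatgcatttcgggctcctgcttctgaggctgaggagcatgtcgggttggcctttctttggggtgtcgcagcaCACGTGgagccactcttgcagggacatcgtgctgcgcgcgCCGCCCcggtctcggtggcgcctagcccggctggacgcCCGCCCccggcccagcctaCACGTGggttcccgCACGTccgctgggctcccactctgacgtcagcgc

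RefSeq listed 19 starts for the 10 genes. The ratio of observed to expected CpG dinucleotides, computed from 250 bases before to 50 bases after a start, was 0.047 at Pgam2 and 0.13 at Eno3, against a median of 0.38 over 32851 promoters. It was 0.95 at Pgam1 and 0.88 at the first start of Ldha. These 4 promoters were chosen by their CpG content, so their places below and above the median follow from the choice. At the starts of Pfkm, also a muscle isoform, the ratio was 0.40, 0.42, 0.46 and 0.19, and at the second start of Ldha it was 0.54. Aldoa held both kinds, with no CpG at its most upstream RefSeq start and 0.71 and 0.75 at the downstream starts.

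The same 300 bases were searched on both strands for fixed letters. ACGTG was found at 8 of 19 starts (42.1% against 19.6% of all promoters), in Pfkm, Aldoa, Pgam1, Pkm, Ldha and Gapdh. CAGCTG was found at 4 starts (21.1% against 16.3%), in Aldoa, Eno3, Pgam2 and Pkm. GGGCGG was found at 7 starts (36.8% against 35.7%). TATAAA was found at 0 of 19 starts, against 13.6% of all promoters. The TEAD motif ACATTCC, the recognition site of the DNA-binding partners of Yap, was found at 1 Aldoa start (5.26% against 3.85%). MEF2 was matched at Pgam2 alone (5.26% against 3.19%) and SRF at Ldha alone (5.26% against 1.63%). Several starts of 1 gene share bases, and a match is a run of letters and not a bound site.

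The libraries held 3326803 to 10319467 counts in windows, with the lowest total in LacZ replicate 2. The window of Yap1, the targeted gene, overlapped other genes' windows and had a level of 2.10 CPM per kb (CPM being the count scaled to library size). It differed between groups by 0.04 on the log2 scale (95% interval -0.32 to 0.40, edgeR adjusted p = 0.990). All 10 muscle fibre markers had a window, with a median level at the 98.5 percentile of windows and a summed level of 1223 to 1788 CPM in LacZ and 1347 to 1529 CPM in Yap-shRNA. Summed levels were 164 to 175 and 172 to 215 CPM for 6 of 6 fibroblast markers, 114 to 134 and 120 to 131 CPM for 6 of 6 endothelial markers, 84.1 to 99.97 and 92.5 to 98.2 CPM for 5 of 6 leukocyte markers, and 70.7 to 87.2 and 77.1 to 92.0 CPM for 4 of 4 satellite cell markers. None of these lists held a window past the adjusted threshold of the edgeR quasi-likelihood test, and 0, 2, 1, 1 and 0 of their windows had an unadjusted p under 0.05, in the order above, against 4.9% of all windows. The median levels of the last 4 lists stood at the 33.7, 63.8, 53.9 and 80.7 percentiles of windows, none of their windows was at 0, and their part in the results at the glycolytic genes was not tested.

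Most glycolytic enzyme windows were among the most accessible in the table. Counts were scaled to CPM with TMM factors and, for comparisons between genes, divided by window length. The median window of the 10 genes stood at the 98.0 percentile of all windows. Gapdh, which oxidises the triose phosphate and is widely used as a reference gene, was highest with 45.6 ± 8.1 CPM per kb (SD over all 6 libraries). Its lowest library, with 37.3 CPM per kb, was above the highest library of Pgam2.

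Pgam2, the muscle phosphoglycerate mutase, followed with 28.3 ± 4.0 CPM per kb. Aldoa, the muscle aldolase, had 25.9 ± 4.6 CPM per kb, and the upstream Aldoa model had 22.6 ± 3.6. These neighbours in the order overlapped in their ranges. Eno3, the muscle enolase, had 18.0 ± 2.7 CPM per kb, Pgam1, the widely expressed mutase, had 16.5 ± 2.8, and Ldha, the lactate dehydrogenase subunit of fast muscle, had 16.2 ± 2.0. Pkm, pyruvate kinase, and Eno1, the widely expressed enolase, had 14.5 ± 1.8 and 13.02 ± 1.8 CPM per kb. From Pgam2 down to Eno1 each window overlapped in range with the next.

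A gap followed. Pfkm, the muscle phosphofructokinase, had 7.59 ± 1.2 CPM per kb, and its highest library, with 8.56, was below the lowest of Eno1, with 9.88. Ldhb was lowest with 5.50 ± 0.48 CPM per kb, at the 66.2 percentile of windows and near the median window, which had 4.45. The windows of Pfkm, Aldoa, Eno3 and Pkm overlap those of other genes (Senp1 and Gm26513, Fam57b, Gm12319 and Gm49759), so their counts are uncertain. The windows ranged from 2.00 to 8.90 kb in length, and the part of window length in the order of levels was not tested.

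**Figure D1:**
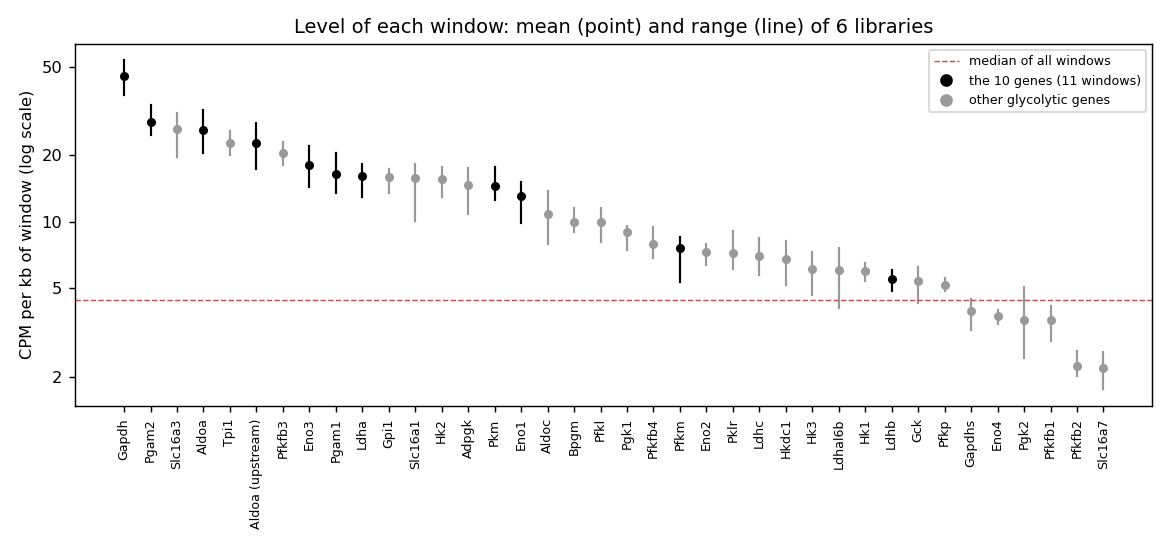
Level of each glycolytic gene window in CPM per kb of window on a log axis, as the mean (point) and range (line) of 6 libraries. Black marks the 11 windows of the 10 genes, grey the 27 other glycolytic genes, and the dashed line the median of all windows at 4.45, with Gapdh highest at 45.6 and Ldhb lowest of the black points at 5.50.

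Reads from processed pseudogenes can be mapped to their parent genes or the reverse. Only pseudogenes named by the symbol of their parent with the ending -ps were looked up. Those with a window belonged to Pgam1, Ldha and Gapdh and had 4.01 to 6.99 CPM per kb, below the parents in each case. Pseudogenes under other symbols were not looked up. How many reads were shared between copies was not tested.

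The comparison of Yap-shRNA with LacZ-shRNA asked whether loss of Yap altered accessibility at these enzymes. No window of the 10 genes passed an adjusted p of 0.05 in the edgeR quasi-likelihood test (0 of 11), against 0.0223% of all windows. None had an unadjusted p under 0.05, against 4.9% of all windows, and in none did the 3 libraries of 1 group lie apart from the other 3, against 10.1% of all windows. The log2 fold changes, Yap-shRNA against LacZ-shRNA, ran from -0.21 to 0.15, with 5 above 0 and 6 below 0 (52.7% of all windows were below 0). Their median was -0.02, beside -0.01 over all windows. With library size alone as the scale 3 of 11 were below 0, and the median over all windows was 0.05.

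Phosphofructokinase and aldolase stand at the head of the sequence. Pfkm had 32.4, 48.1 and 51.8 CPM in LacZ replicates 1 to 3 and 50.3, 47.9 and 45.3 CPM in Yap-shRNA replicates 1 to 3. LacZ replicate 1 was low and the other 5 libraries lay close together. The log2 fold change was 0.12 (95% interval -0.18 to 0.41).

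Aldoa had 102, 154 and 160 CPM in LacZ replicates 1 to 3 and 127, 114 and 119 CPM in Yap-shRNA. LacZ replicate 1 was the lowest of all 6 libraries and LacZ replicates 2 and 3 were the highest, with the Yap-shRNA libraries in between. The log2 fold change of -0.21 (SE 0.15, 95% interval -0.51 to 0.09) was the furthest from 0 of the 11 windows and did not pass the test (edgeR adjusted p = 0.949). Without LacZ replicate 1 it was -0.39 (SE 0.09, 95% interval -0.58 to -0.21, edgeR adjusted p = 0.0329), in a fit that called 157 windows, or 0.318% of all windows, in place of 11. The upstream Aldoa model had 34.7, 56.1 and 47.2 CPM in LacZ and 46.7, 40.0 and 47.2 CPM in Yap-shRNA, a log2 fold change of -0.03 (95% interval -0.32 to 0.27).

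Gapdh had 223, 313 and 312 CPM in LacZ and 318, 237 and 221 CPM in Yap-shRNA. LacZ replicate 1 and Yap-shRNA replicates 2 and 3 were low, and the other 3 libraries high, so that each group held both. The log2 fold change was -0.12 (95% interval -0.45 to 0.20, edgeR adjusted p = 0.964).

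Phosphoglycerate mutase moves a phosphate between carbons of phosphoglycerate. Pgam2 had 49.9, 59.3 and 64.1 CPM in LacZ and 67.1, 49.6 and 49.5 CPM in Yap-shRNA, with Yap-shRNA replicate 1 above all others. Pgam1 had 29.1, 29.2 and 44.1 CPM in LacZ and 34.4, 35.8 and 40.9 CPM in Yap-shRNA, with LacZ replicate 3 above all others. The groups overlapped at both genes, with log2 fold changes of -0.06 (95% interval -0.35 to 0.23) and 0.08 (-0.22 to 0.39).

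Enolase makes phosphoenolpyruvate. Eno3 had 73.4, 101 and 97.3 CPM in LacZ and 113, 87.7 and 84.6 CPM in Yap-shRNA. Eno1 had 87.9, 134 and 123 CPM in LacZ and 124, 114 and 112 CPM in Yap-shRNA. LacZ replicate 1 was the lowest library at both isoforms, and the groups overlapped. The log2 fold changes were 0.07 (95% interval -0.22 to 0.37) and 0.03 (-0.26 to 0.32).

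Pkm, whose product pyruvate kinase makes pyruvate and ATP, had 98.4, 109 and 117 CPM in LacZ and 140, 109 and 110 CPM in Yap-shRNA. Yap-shRNA replicate 1 stood above the other 5 libraries. The log2 fold change of 0.15 (95% interval -0.13 to 0.43, edgeR adjusted p = 0.952) was the highest of the 11 windows.

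Ldha had 92.1, 130 and 128 CPM in LacZ and 123, 112 and 109 CPM in Yap-shRNA, with LacZ replicate 1 lowest and the other 2 LacZ libraries highest. Ldhb, whose subunit favours the conversion of lactate to pyruvate, had 37.1, 33.3 and 34.2 CPM in LacZ and 29.8, 37.1 and 31.5 CPM in Yap-shRNA. Here LacZ replicate 1 was among the highest libraries. The log2 fold changes were -0.02 (95% interval -0.31 to 0.26) at Ldha and -0.09 (-0.37 to 0.20) at Ldhb.

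**Figure D2:**
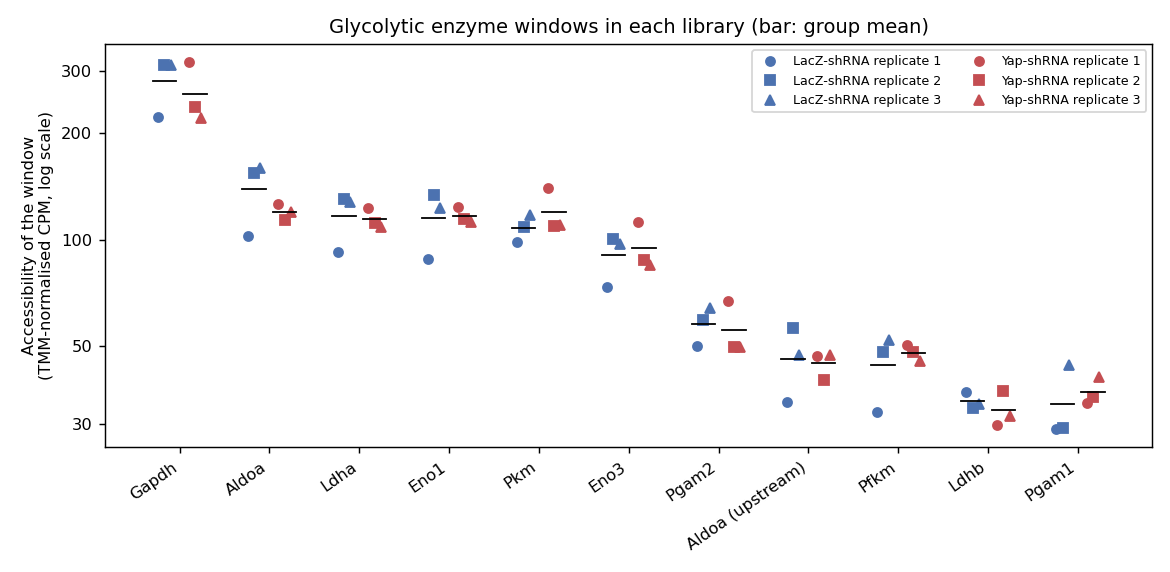
TMM-normalised CPM of each glycolytic enzyme window on a log axis in the 3 LacZ-shRNA (blue) and 3 Yap-shRNA (red) libraries, with the symbol giving the replicate number and the bar the group mean. The groups overlap at all 11 windows, and LacZ replicate 1 is the lowest library at 8 of them.

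LacZ replicate 1 thus stood apart at these genes. It was the lowest library at 8 of 11 windows, with a median log2 deviation of -0.32 from the mean of the 6 libraries. Over the 7255 windows with a mean count at least that of the lowest of the 11, its median deviation was -0.20. These 7255 windows include the 11 and have no upper limit of count. The summed counts of the 11 windows made up 0.0876% of its window counts, against 0.0972 to 0.120% in the other 5 libraries. Without it, 10 of 11 log2 fold changes were below 0 and their median was -0.13, while the median over all windows was 0.00. All windows include those of lower count. Over the 7255 windows, LacZ replicates 2 and 3 had median deviations of 0.065 and 0.087. Those of Yap-shRNA replicates 1 to 3 were lower, at 0.007, -0.004 and 0.038. The Aldoa window was the 1 window of the 11 that passed the adjusted threshold in the fit without LacZ replicate 1. Why this library was low was not tested.

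The intervals bound what these libraries could have missed. The 95% intervals of the 11 windows reached from -0.51 to 0.43 on the log2 scale, with SEs of 0.14 to 0.16, below the median SE of 0.20 over all windows. Over the 7255 windows with a mean count at least that of the lowest of the 11, the median SE was 0.138, and each of the 11 was above it. The windows held 91 to 3126 counts per library. These values do not show that accessibility was equal in the 2 groups.

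**Figure D3:**
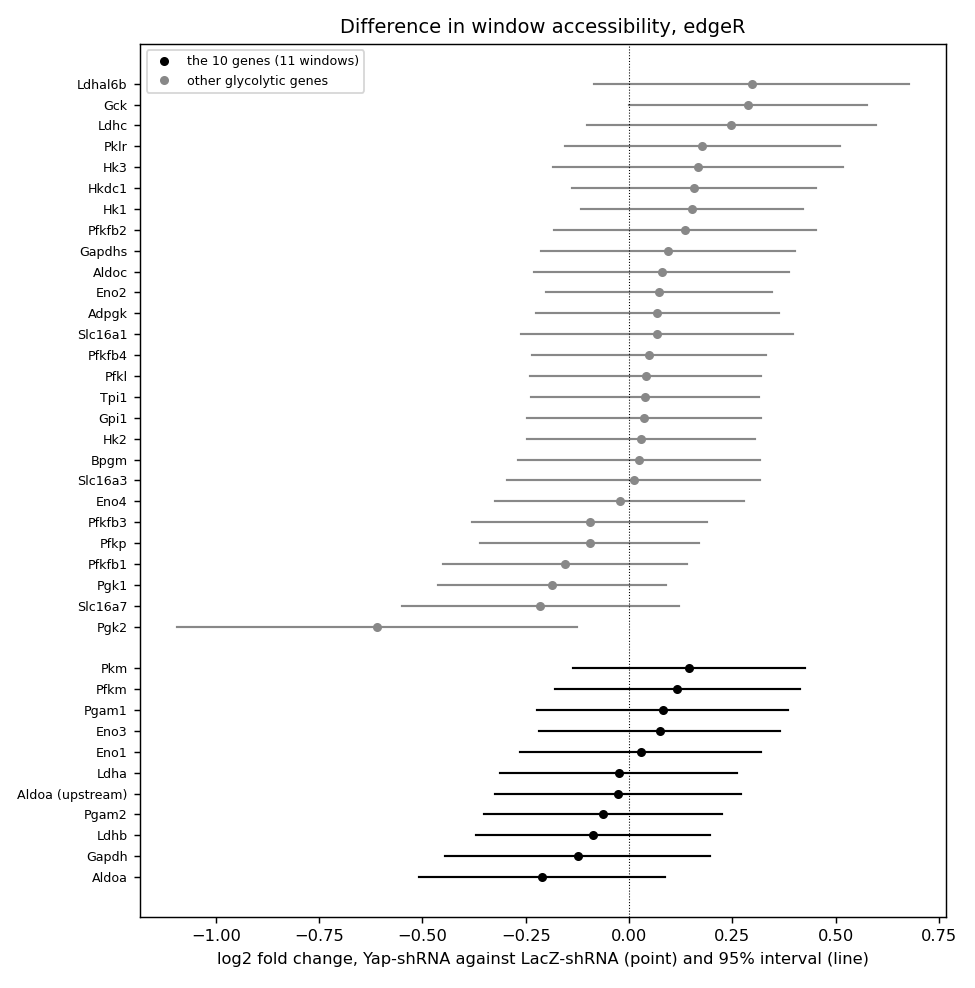
Log2 fold change of each window, Yap-shRNA against LacZ-shRNA, with its 95% interval from edgeR, for the 11 windows of the 10 genes (black) and 27 other glycolytic genes (grey). All 11 black intervals cross 0, and of the grey ones only that of Pgk2 does not.

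The other genes of the pathway, namely hexokinases, further isoforms, regulators of phosphofructokinase and lactate transporters, were read from the same fit. All 27 genes reported had a window, 0 passed the adjusted threshold in edgeR (0.0223% of all windows), and 1 had an unadjusted p under 0.05 (4.9% of all windows). Their log2 fold changes were above 0 in 20 and below 0 in 7 (52.7% of all windows were below 0), with a median of 0.05 beside -0.01 over all windows. The groups did not overlap at Pgk1 and Pgk2, that is at 2 of 27 against 10.1% of all windows.

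Pgk2, the phosphoglycerate kinase of sperm cells, had 10.1, 8.65 and 7.52 CPM in LacZ and 5.30, 6.80 and 4.87 CPM in Yap-shRNA. Every LacZ library was above every Yap-shRNA library at this low level, and the log2 fold change of -0.61 (SE 0.24, unadjusted p = 0.0149 and adjusted p = 0.946 in edgeR) did not pass. Ldhal6b, a lactate dehydrogenase-like gene, had the highest log2 fold change of the list, 0.30 (95% interval -0.09 to 0.68). The lactate exporter Slc16a3 (26.3 CPM per kb) and Tpi1, triose phosphate isomerase (22.7 CPM per kb), had levels in the range of Aldoa.

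Isoforms of 1 reaction were compared within each library, since their ratio does not depend on how libraries are scaled. Eno3 was above Eno1 per kb in 6 of 6 libraries, with a mean log2 ratio of 0.46 ± 0.08 in LacZ and 0.48 ± 0.15 in Yap-shRNA (SD, n = 3). This order rests on the window lengths of 5.14 kb for Eno3 and 8.90 kb for Eno1. In CPM not divided by length, Eno1 was above Eno3 in every library, and the Eno3 window also overlaps that of Gm12319. Pgam2 was above Pgam1 in 6 of 6, with 0.88 ± 0.23 and 0.67 ± 0.35. Ldha was above Ldhb in 6 of 6, with 1.499 ± 0.36 and 1.58 ± 0.23.

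Aldoa was above Aldoc, the aldolase of brain, in 6 of 6 libraries, with mean log2 ratios of 1.38 ± 0.25 in LacZ and 1.12 ± 0.11 in Yap-shRNA. Pfkm was the exception and lay below Pfkl, the liver phosphofructokinase, in 6 of 6 libraries, with -0.43 ± 0.16 and -0.35 ± 0.04. The Pfkm window overlaps those of Senp1 and Gm26513, and the Aldoa window that of Fam57b, while the windows of Pfkl and Aldoc overlap none. Over the 6 libraries the Pfkm window held 2184 counts, fewer than the 2228 of its 2 promoter peaks. The part of window overlap in the order of Pfkm and Pfkl was not tested. The 9.93 CPM per kb of Pfkl and 10.8 of Aldoc differed between groups by log2 fold changes of 0.04 and 0.08.

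The groups overlapped in all 5 ratios. Differences of the log2 ratio, Yap-shRNA against LacZ-shRNA, were 0.03 for Eno3 to Eno1, -0.20 for Pgam2 to Pgam1, 0.08 for Ldha to Ldhb, 0.08 for Pfkm to Pfkl and -0.26 for Aldoa to Aldoc. The two-sided exact permutation p ran from 0.2 to 0.8, each 0.8 after Benjamini-Hochberg adjustment over the 5 pairs. With 3 libraries against 3 this test cannot give a p under 0.1.

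**Figure D4:**
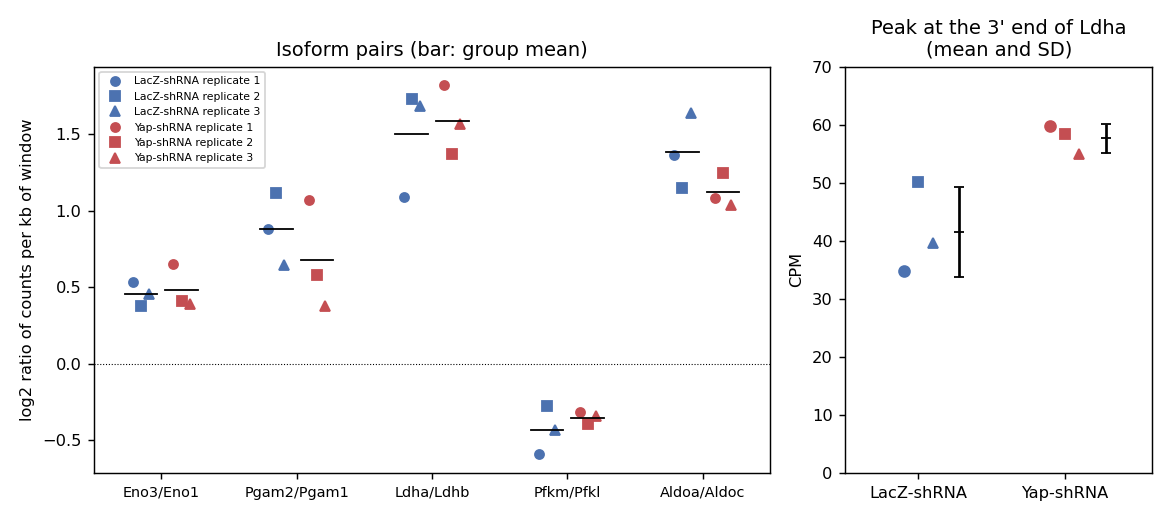
Left, log2 ratio of window counts per kb for 5 isoform pairs in each library (symbols by replicate, bar for the group mean), above 0 in all libraries except for Pfkm to Pfkl. Right, CPM of the peak at the 3′ end of Ldha in each library with mean and SD, where the 3 Yap-shRNA libraries (54.9 to 59.7) lie above the 3 LacZ-shRNA libraries (34.8 to 50.1).

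Peaks of accessibility, counted in a second table made from the same reads, showed where in each locus the signal lay. Within the genes or 10 kb of their ends were 21 of 36097 peaks, of which 13 lay within 1 kb of a start, 2 covered an exon away from a start, 1 lay in an intron and 5 in the flanks. They were wide, with a median of 2063 bp against 902 bp over all peaks, and 5 of 21 (23.8%) spanned 3 kb or more, against 1.96% of all peaks. All peaks include those far from starts, and widths were not compared with peaks of like place. Some wide peaks lay at neighbouring genes: 3153 bp in the Eno3 flank near the starts of Rnf167 and Slc25a11, and 3424 bp at Pkm near that of Gramd2. Of the 19 RefSeq starts, 14 lay in a peak.

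The muscle isoforms Eno3 and Pgam2 held the widest of these peaks. At Pgam2 a peak of 6132 bp (chr11:5798574-5804705) covered the whole gene with 257 CPM. At Eno3 a peak of 6771 bp (chr11:70653361-70660131) held 264 CPM and also covered the starts of Pfn1 and Gm12319, so its counts are not those of Eno3 alone. At Gapdh a peak of 4118 bp (chr6:125163557-125167674) had the highest level, 325 CPM.

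The promoter peaks of the other genes were narrower. The main peak at Pfkm spanned 1171 bp with 38.7 CPM. The peak at Pgam1 spanned 1762 bp with 48.1 CPM, that at the Eno1 start 1714 bp with 62.3 CPM, that at the Pkm start 2471 bp with 104 CPM and that at Ldha 2753 bp with 105 CPM. At Ldhb a peak of 452 bp held 8.09 CPM. The upstream Aldoa model had a peak of 2944 bp (chr7:126806850-126809793) with 103 CPM, while no peak of the table overlapped the main Aldoa gene, whose window held 5943 counts over the 6 libraries.

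None of the 21 peaks passed an adjusted p of 0.05 in edgeR, against 0.618% of all peaks. An unadjusted p under 0.05 was found at 3 of 21, against 8.9% of all peaks, and the groups did not overlap at 3 of 21, against 13.3%. The log2 fold change was above 0 at 17 of 21, against 49.5% of all peaks, with a median of 0.10 beside 0.00 over all peaks. Several of the 21 peaks share a gene or lie near starts of other genes. Their direction was not compared with peaks of like width, level or place. The 3 peaks with the lowest p-values lay at Ldha and Pkm.

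At the 3′ end of Ldha, a peak over the end of the gene and the flank (chr7:46854866-46857446) had 34.8, 50.1 and 39.6 CPM in LacZ and 59.7, 58.4 and 54.9 CPM in Yap-shRNA. Each Yap-shRNA library was above each LacZ library. The log2 fold change was 0.50 (SE 0.13, 95% interval 0.24 to 0.76), with an unadjusted p of 0.00038 and an adjusted p of 0.0568 in edgeR, just short of the threshold. The adjusted p ran from 0.0110 to 0.295 over the alternatives, and without LacZ replicate 2 it was 0.0205 with a log2 fold change of 0.62. The promoter peak of Ldha had a log2 fold change of 0.04 (95% interval -0.22 to 0.30), so the 2 ends of the gene gave different values, but the difference between them was not tested.

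At the 3′ end of Pkm, a peak that also lies near the start of Gramd2 (chr9:59677620-59681043) had 56.1, 73.9 and 65.7 CPM in LacZ and 84.5, 88.4 and 80.6 CPM in Yap-shRNA. The groups did not overlap, and the log2 fold change was 0.38 (SE 0.13, unadjusted p = 0.0041 and adjusted p = 0.218 in edgeR). A peak at an internal Pkm start (chr9:59671584-59672951), shared with Gm49759, had 35.9, 28.4 and 31.2 CPM in LacZ and 43.2, 42.1 and 34.6 CPM in Yap-shRNA, with overlap between the groups. Its log2 fold change was 0.32 (SE 0.14, unadjusted p = 0.0221 and adjusted p = 0.426 in edgeR). At the main Pkm start the peak had a log2 fold change of 0.20 (95% interval -0.07 to 0.47).

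The remaining promoter peaks had log2 fold changes from -0.16 to 0.25, and none had an unadjusted p under 0.05 in edgeR. At the highest promoter peak of each gene the values were 0.11 at Pfkm, -0.01 at the upstream Aldoa model, -0.07 at Gapdh, 0.16 at Pgam1, 0.00 at Pgam2, 0.08 at Eno3, 0.03 at Eno1 and -0.16 at Ldhb. A second promoter peak of Pfkm, near the starts of Senp1 and Gm26513, had 0.25 (95% interval -0.04 to 0.55). A peak at an internal Eno1 start had 37.0, 40.3 and 39.2 CPM in LacZ and 43.0, 44.5 and 42.8 CPM in Yap-shRNA, and its groups did not overlap. Its log2 fold change was 0.16 (95% interval -0.09 to 0.42, edgeR adjusted p = 0.792). With library size alone as the scale the median of all peaks was 0.14, and the values at Gapdh and the upstream Aldoa model were 0.08 and 0.13, which turned their direction but lay at or below that median.

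**Figure D5:**
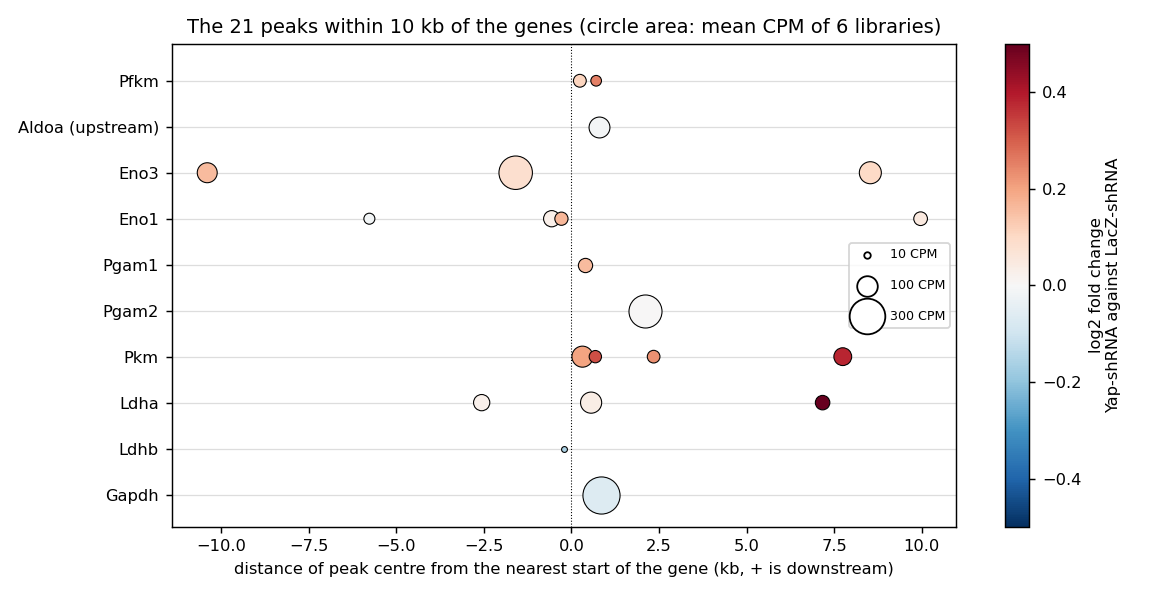
The 21 peaks within 10 kb of the genes, placed by the distance of the peak centre from the nearest start of the gene in kb, with circle area for the mean CPM of 6 libraries and colour for the log2 fold change, Yap-shRNA against LacZ-shRNA. The highest fold change, 0.50, is the peak downstream at Ldha, and the largest circles at Gapdh, Eno3 and Pgam2 are pale.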

How the data were processed

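Accessibility was measured by ATAC-seq in sorted PCM1+ nuclei. Per the labels and methods, the authors mapped reads with BWA 0.7.17 to GRCm38, discarded duplicates (SAMtools 1.8), found peaks by MACS 1.4.2-1 and counted reads with featureCounts 1.5.0. The deposited values are raw read counts per peak or TSS window, from which rows averaging fewer than 10 counts were already missing. A mapping quality minimum for these tables is not given in the sources used here. Window extent was inferred and then checked on the counts: of 5736 isolated windows, 99.98% contained 0.95 or more of the reads of their inner peaks. A larger window would also pass this check, so it bounds the extent from below only. Levels per kb depend on the inferred length. Overlapping windows (10344, 21.0%) are uncertain.

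Each whole table (49366 windows, 36097 peaks) was fitted by the quasi-likelihood test of edgeR 4.0.16 (R 4.3.3) on 3 against 3 libraries with TMM factors, without covariates, and p-values were adjusted by Benjamini-Hochberg with a threshold of 0.05. The tests were checked on simulated data. Isoform ratios used a prior count of 2 and an exact permutation test. Libraries held 3326803 to 10319467 window counts and 2588520 to 6871176 peak counts. The labels do not tie libraries to animals, so p-values measure only the spread between these libraries, which may be technical, and contralateral muscles of the same animals may be in both groups.

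The genes and lists were chosen with earlier results of these data known. Named are the 10 genes, pathway genes with an unadjusted p under 0.05 or the highest or lowest log2 fold change, isoform counterparts, the highest promoter peak of each gene and peaks with an unadjusted p under 0.05. Pgk1, Slc16a3, Tpi1, the further promoter peaks of Pfkm and Eno1 and the width of peaks were singled out after their values were seen. A gene of the pathway list is not reported here. As alternatives, the likelihood-ratio test was run, as were DESeq2 1.42.0, limma 3.58.1 voom, median-ratio, library-size and loess (span 0.3) scaling, a mean count of at least 50, a replicate block, prior counts of 0.5 and 5, promoter peaks in place of windows and leaving out each library.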

Additional observations from a re-analysis of the deposited data

How the results depend on the processing

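No window of the 10 genes passed the threshold under any alternative except without LacZ replicate 1, where Aldoa did (0 to 1 of 11 when 1 library was left out). Pathway windows past it stayed at 0. The Ldha 3′ peak was the only peak of the 21 to pass, with 1 call in each of the likelihood-ratio test (log2 fold change 0.50, adjusted p = 0.0235), limma voom (0.52, 0.0367), library size alone (0.64, 0.0110) and the loess offset (0.51, 0.0457), and 0 to 1 when 1 library was left out. Over all windows there were 11 calls, against 20 with DESeq2, 23 with voom, 29 with loess, 33 with the likelihood-ratio test and 4 to 157 with 1 library left out (157 without LacZ replicate 1, 5 and 4 without Yap-shRNA replicates 1 and 2). Over all peaks there were 223 calls, against 118 with DESeq2, 378 with the likelihood-ratio test, 143 with loess, 136 at a mean count of at least 50 and 94 to 447 with 1 library left out (132 and 447 without LacZ replicates 2 and 3, 94 without Yap-shRNA replicate 1 or 2). DESeq2 gave no adjusted p to many low rows. The causes were not tested.

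With library size alone the median over all windows was 0.05, and the windows of the upstream Aldoa model (0.040), Pgam2 (0.00035) and Ldha (0.044) turned above 0, as did the peaks of the upstream Aldoa model (0.13, and 0.057 with loess) and Gapdh (0.077, and 0.15 with loess). The Pgam2 peak turned below 0 with DESeq2 (-0.00066), voom (-0.0069), median-ratio factors (-0.00062), a mean count of at least 50 (-0.0041) and the replicate block (-0.0073).

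With 1 library left out, window log2 fold changes ranged from -0.075 to 0.28 at Pfkm, -0.39 to -0.086 at Aldoa, -0.19 to 0.11 at the upstream model, -0.067 to 0.15 at Eno3, -0.13 to 0.14 at Eno1, -0.060 to 0.34 at Pgam1, -0.22 to 0.032 at Pgam2, 0.020 to 0.21 at Pkm, -0.17 to 0.056 at Ldha, -0.19 to -0.022 at Ldhb and -0.30 to -0.024 at Gapdh. Promoter peaks ranged from 0.018 to 0.31 at Pfkm, -0.11 to 0.089 at the upstream model, -0.051 to 0.15 at Eno3, -0.11 to 0.14 at Eno1, 0.071 to 0.33 at Pgam1, -0.13 to 0.072 at Pgam2, 0.070 to 0.27 at Pkm, -0.040 to 0.084 at Ldha, -0.42 to 0.031 at Ldhb and -0.22 to 0.019 at Gapdh. The Ldha 3′ peak ranged from 0.40 to 0.62. Isoform ratio differences ranged from -0.057 to 0.076 for Eno3 to Eno1 and -0.12 to 0.20 for Ldha to Ldhb, and, with the sign kept, from -0.40 to -0.057 for Pgam2 to Pgam1, 0.0021 to 0.16 for Pfkm to Pfkl and -0.38 to -0.13 for Aldoa to Aldoc. From promoter peaks the difference was 0.22 for Ldha to Ldhb and 0.18 for Pfkm to Pfkl, and none could be had for Aldoa, which has no promoter peak. Prior counts of 0.5 and 5 kept every sign.

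Whether the replicate numbers pair the libraries cannot be settled with 3 libraries per group. Deviations of same-numbered libraries correlated at 0.19, -0.12 and 0.09 in windows and 0.02, -0.09 and -0.14 in peaks. In windows 2 of 3 pairs, and in peaks 0 of 3, correlated best with their own number. With the replicate block 13 windows and 207 peaks passed, 0 of them at the 10 genes. Depth limits the Ldhb peak most, with 269 counts over 6 libraries.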
